A study of Mus musculus with 4 samples.

Results

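The 42 genes described here encode the proteins that copy DNA, from origin recognition to ligation, together with 4 genes that supply nucleotides or keep DNA methylation through replication. The rule that picks them uses gene symbol and protein-coding biotype and no measured value, although the set was proposed with earlier results of these data known, and all 42 were found among the 55487 mouse gene IDs of the table. Neural stem cells, which divide to form the neurons and glia of the brain, were cultured from mice in 4 groups, and each group gave 1 library. WT was a Tut1f/f culture that received empty lipid nanoparticles (LNP), and the cultures labelled Tut1 KO (Tut1f/f), P53 KO (p53f/f) and Tut1 and P53 KO (Tut1f/f;p53f/f, called double KO below) received LNP with mRNA of Cre recombinase, which removes DNA between loxP sites, for 3 days. All were primary cells from mid-gestation embryonic neocortex grown with FGF and EGF. Levels are in TPM (transcripts per 1000000 transcripts), which scales reads by transcript length and library total, so that levels of different genes can be set side by side per length. Differences are of log2(TPM + 1), which understates the change of genes with low values. In such bulk libraries, fewer cells in S phase and less RNA per cell cannot be told apart.

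With 1 library per group there was no spread between replicates, and no difference below was tested. The read depth behind the values is unknown, because TPM keeps none. Tut1 encodes the enzyme that adds uridines to U6 snRNA, and its level was not lower under its label: 12.2 TPM in WT, 29.8 TPM in the library labelled Tut1 KO, 12.5 TPM in P53 KO and 13.7 TPM in double KO. The deletion takes out a single exon, so a gene-level value need not fall and does not check the label, and exon coverage was not analysed here. The libraries are therefore called by their labels throughout, and a direction drawn from the names Tut1 KO or double KO rests on the label. Trp53, which encodes p53, had 120 TPM and 100.4 TPM in WT and Tut1 KO against 39.7 TPM and 41.9 TPM in P53 KO and double KO. Xist, the X-inactivation RNA, was at 188 and 204 TPM in Tut1 KO and P53 KO and at 0.01 TPM in both others. Each comparison of libraries below thus sets an Xist-high library against an Xist-low one. Sex-linked expression therefore cannot be told apart from the label in any single comparison, nor from the difference between both Tut1 comparisons. WT also differed from the 3 other groups in having received no Cre mRNA. All 10 neural stem cell markers were at 1 TPM or more in each library, and their summed level was lowest in P53 KO (10699 TPM) and highest in WT (12592 TPM). The 7 neuronal markers summed to between 166 TPM (Tut1 KO, where Stmn2 was at 0) and 241 TPM (WT), the 6 markers of the oligodendrocyte lineage to between 647 TPM (Tut1 KO) and 736 TPM (WT), and the 5 of astrocytes to between 245 TPM (WT) and 278 TPM (double KO). Their part in the results was not tested. Markers of microglia, endothelial and mural cells and fibroblasts summed to less than 1 TPM per list and library.

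Replication begins when the origin recognition complex, Cdc6 and Cdt1 load the ring of Mcm2 to Mcm7 onto DNA, a step called licensing, which geminin (Gmnn) restrains by holding Cdt1. Cdc45 and the GINS complex then turn the ring into the active helicase, polymerase alpha and primase lay down primers, polymerases delta and epsilon extend them on the sliding clamp Pcna, and Fen1 and Lig1 trim and join the lagging-strand pieces. Many of these genes are switched on together before S phase by E2F transcription factors, and neural stem cells of the embryonic cortex cycle rapidly and so depend on them.

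The promoters show what part of the set shares in sequence. RefSeq windows (GRCm38.p6) of 250 bases before and 50 after the gene start were at hand for 34 of the 42 members. The windows for Gins1, Gins2, Gins4, Gmnn, Mcm4, Pole, Prim2 and Rfc2 were not analysed here. An E2F-type match (TTTNNCGC, or GCGNNAAA on the other strand) stood in 15 of the 34 members (44.1%), against 11.3% of 6854 protein-coding genes tested for expression and 5.93% of all 27025 genes with a window. A CCAAT box (CCAAT or ATTGG) stood in 23 members (67.6%, against 44.2% of genes tested), a Sp1-type match (GGGCGG or CCGCCC) in 25 (73.5% against 73.0%) and a CHR (TTTGAA or TTCAAA), the element of many mitotic genes, in 5 (14.7% against 14.1%). A match is a description of letters and not a measured binding site. The upstream 250 bases are printed here for Mcm6, Mcm5 and Uhrf1, which were among the 6 most abundant members with an E2F-type match. Of these 6, Mcm7 was left out because its stretch lies within an annotated UTR, and Lig1 and Mcm3 because their matches lie after the start. Capitals mark the E2F-type matches, each sequence runs 5′ to 3′ along the gene's strand, and the positions are chr1:128359706-128359955 (minus strand) for Mcm6, chr8:75109259-75109508 (plus) for Mcm5 and chr17:56303087-56303336 (plus) for Uhrf1.
Mcm6: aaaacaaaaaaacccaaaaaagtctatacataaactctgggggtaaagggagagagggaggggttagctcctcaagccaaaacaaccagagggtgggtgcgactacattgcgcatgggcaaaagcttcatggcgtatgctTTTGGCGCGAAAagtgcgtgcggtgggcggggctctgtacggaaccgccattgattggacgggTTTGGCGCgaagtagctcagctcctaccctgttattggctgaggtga
Mcm5: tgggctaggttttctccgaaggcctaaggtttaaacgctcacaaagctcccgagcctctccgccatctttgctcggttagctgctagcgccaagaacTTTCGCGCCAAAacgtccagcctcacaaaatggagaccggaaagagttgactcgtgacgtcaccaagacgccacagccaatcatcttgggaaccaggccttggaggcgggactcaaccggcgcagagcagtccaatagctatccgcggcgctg
Uhrf1: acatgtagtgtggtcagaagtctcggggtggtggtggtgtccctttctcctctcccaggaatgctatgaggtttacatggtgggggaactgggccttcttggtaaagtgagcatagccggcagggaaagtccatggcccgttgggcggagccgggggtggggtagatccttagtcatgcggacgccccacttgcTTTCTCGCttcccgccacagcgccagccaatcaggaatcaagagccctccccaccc
Mcm6 held 3 matches, starting 110, 106 and 47 bases before the gene start, the first pair overlapping on opposite strands. In Mcm5 there was 1 such overlapping pair, 153 and 149 bases before the start, and in Uhrf1 a single match 56 bases before it.

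**Figure D1:**
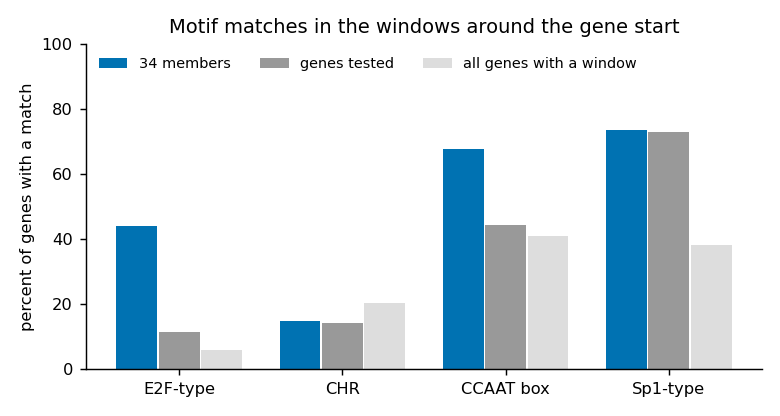
Percent of genes (vertical axis) with at least 1 match to each of 4 motifs in the 300-base window around the gene start, for 34 replication genes, 6854 protein-coding genes tested for expression and 27025 genes with a window. The replication genes stand above both other sets for the E2F-type motif (44.1% against 11.3% and 5.93%) and the CCAAT box, and beside the genes tested for the CHR and Sp1-type motifs.

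Members with and without an E2F-type match had similar median expression differences, with no test run. The split is by letters and not by measured E2F control. In Tut1 KO minus WT the median difference was -0.19 for the 15 with a match and -0.18 for the 19 without, and in double KO minus Tut1 KO it was 0.21 for both.

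As a set, the replication genes were well expressed and steady across the 4 libraries. Their levels ran from Orc1 (5.06 to 6.63 TPM) to Pcna (367 to 506 TPM), and the median member had 59.3 TPM in WT, 51.4 TPM in Tut1 KO, 55.5 TPM in P53 KO and 56.5 TPM in double KO, where the median of the genes tested was 28.0 to 30.2 TPM. The range over the 4 libraries had a median of 0.32 on the log2 scale, against 0.39 for the 9314 genes at 10 TPM or more in some library. Only Rpa1 and Fen1 of the 42 spanned 1 or more, where 9.28% of those genes did, and 33 (78.6%) spanned less than 0.5, against 66.7%. Orc1 and Gins3 stayed below 10 TPM in each library, so 40 members entered the counts of each comparison. Summed over the 42 genes, TPM was 3399.6 in WT, 2915 in Tut1 KO, 3313 in P53 KO and 3477 in double KO.

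**Figure D2:**
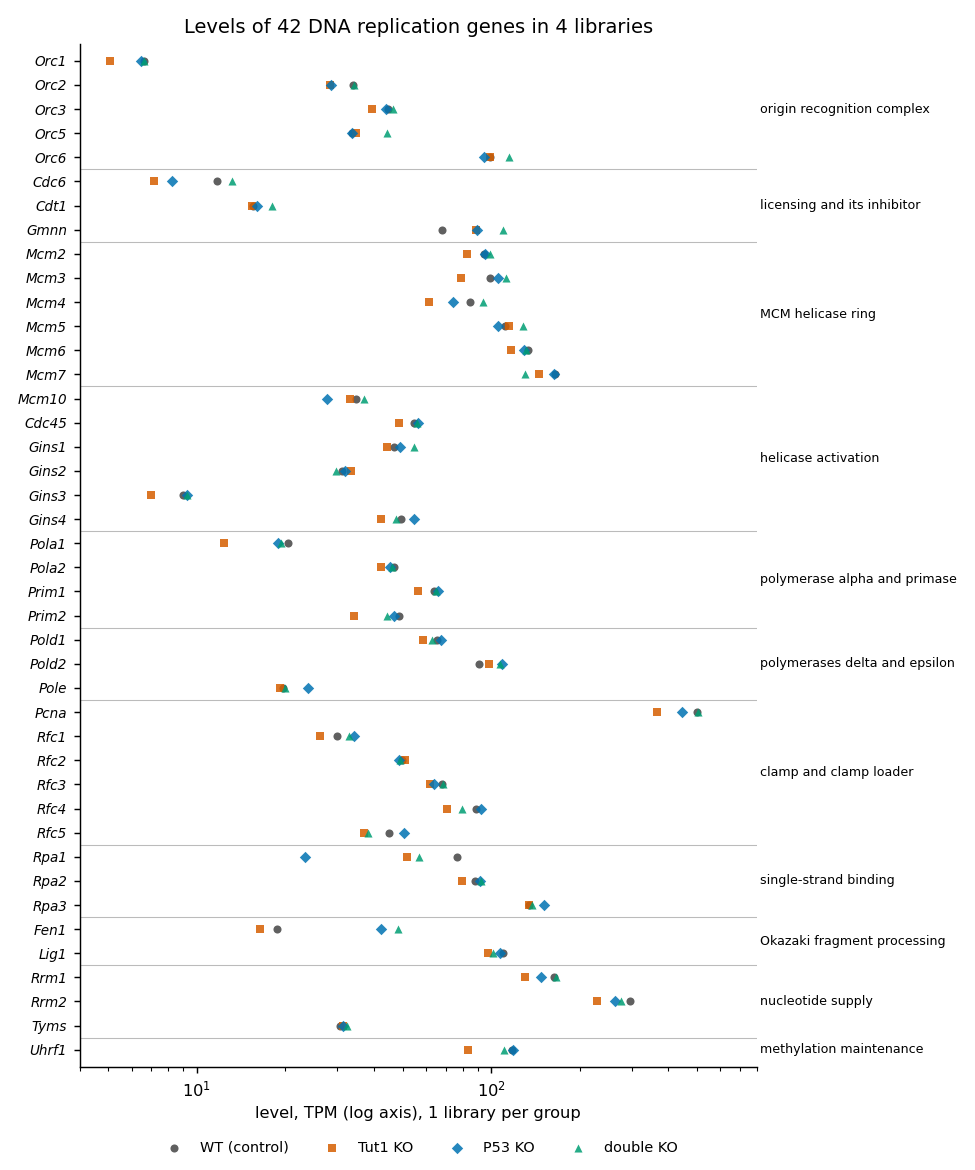
TPM (horizontal axis, logarithmic) of the 42 replication genes in 4 libraries of 1 culture each, grouped by role. Orange squares (the library labelled Tut1 KO) lie leftmost for 31 genes, and Rpa1 and Fen1 are the widest rows.

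The origin recognition complex marks the sites where replication starts. Its most abundant member was Orc6, with 99.2 TPM in WT, 99.2 TPM in Tut1 KO, 94.4 TPM in P53 KO and 115 TPM in double KO. All 5 members in the set were highest in double KO, as were 27.7% of all genes. Their sum was 246 TPM there, against 218 TPM in WT and 207 TPM in both Tut1 KO and P53 KO. The subunit Orc4, outside the set, was instead highest in WT (40.2 TPM, against 33.5 TPM in double KO). Orc5 shares exons on its strand with the pseudogene Gm15421, which had 11.3 TPM in WT, 15.6 TPM in Tut1 KO, 69.1 TPM in P53 KO and 67.4 TPM in double KO, so the level of Orc5 (33.5 to 44.2 TPM) is uncertain.

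Licensing genes went both ways. Cdc6 (ENSMUSG00000017499, chromosome 11, 98907801 to 98923940, plus strand, GRCm38), the loader of the MCM ring, had 11.7 TPM in WT, 7.16 TPM in Tut1 KO, 8.21 TPM in P53 KO and 13.2 TPM in double KO. It was thus low where a single gene was targeted and high in WT and double KO, with differences of -0.64 (Tut1 KO minus WT) and 0.63 (double KO minus P53 KO). It reached 10 TPM only in WT and double KO, so it entered each comparison through the library where it was high. Geminin, the inhibitor, was lowest in WT: Gmnn had 68.1 TPM there, 88.6 TPM in Tut1 KO, 89.8 TPM in P53 KO and 110.1 TPM in double KO. It was the member highest above WT in Tut1 KO (0.38), and it alone of the 3 licensing genes was lowest in WT. Its partner Cdt1 varied from 15.4 to 18.0 TPM, and the ratio of Gmnn to Cdt1 TPM was 4.40 in WT, 5.75 in Tut1 KO, 5.60 in P53 KO and 6.12 in double KO.

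The MCM ring holds its 6 subunits in equal number, and their transcripts were within 2.35 times of each other in each library. Mcm4 had the lowest level of the 6 in all 4 libraries, at 84.6 TPM in WT, 61.7 TPM in Tut1 KO, 74.4 TPM in P53 KO and 94.0 TPM in double KO. At the top stood Mcm7, with 165 TPM in WT, 145 TPM in Tut1 KO, 163 TPM in P53 KO and 130.2 TPM in double KO, where Mcm6 (132 TPM) was level with it. The ratio of the highest to the lowest subunit was therefore 1.95 in WT, 2.35 in Tut1 KO, 2.19 in P53 KO and 1.40 in double KO. Mcm7 shares exons with Cops6 and Ap4m1 on the other strand (its value is uncertain if strand was not used), and it was the subunit that was lowest in double KO. Mcm3 had 98.8 TPM in WT, 79.2 TPM in Tut1 KO, 105 TPM in P53 KO and 112 TPM in double KO. Over the ring, 5 of 6 subunits were below WT in Tut1 KO, Mcm5 being the exception, where 60.7% of all genes were below WT, and summed levels were 689 TPM in WT, 600.3 TPM in Tut1 KO, 673 TPM in P53 KO and 695 TPM in double KO.

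Genes that activate the ring spanned 0.17 (Gins2) to 0.41 (Mcm10) on the log2 scale over the libraries. Cdc45, the most abundant, had 54.7 TPM in WT, 48.8 TPM in Tut1 KO, 56.5 TPM in P53 KO and 56.1 TPM in double KO. Of the 4 GINS subunits, Gins2 was the one that was highest in Tut1 KO (33.5 TPM) and lowest in double KO (29.6 TPM), and the 3 others were lowest in Tut1 KO. Mcm10, which binds the assembled helicase, was lowest in P53 KO, at 27.6 TPM against 33.1 to 36.9 TPM elsewhere.

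Polymerase alpha and primase start each new strand, and all 4 of their genes were lowest in Tut1 KO, as were 41.1% of all genes. Pola1, the catalytic subunit (ENSMUSG00000006678, X chromosome, 93304767 to 93632155, minus strand) and the one member off the autosomes, had 20.4 TPM in WT, 12.3 TPM in Tut1 KO, 18.8 TPM in P53 KO and 19.4 TPM in double KO. The large primase subunit Prim2 had 48.6 TPM in WT, 34.1 TPM in Tut1 KO, 46.8 TPM in P53 KO and 44.3 TPM in double KO. Prim1, the catalytic primase, was the most abundant of the 4 and differed less, with 63.9, 56.2, 66.0 and 64.9 TPM in the same order. Tut1 KO stood below the 3 other libraries for each of these genes, by -0.68 (Pola1), -0.50 (Prim2), -0.18 (Prim1) and -0.13 (Pola2) against WT.

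Among the polymerases that extend the primers, Pold1 (58.8 TPM against 63.0 to 67.5 TPM) and Pole (19.2 TPM against 19.6 to 23.9 TPM) were lowest in Tut1 KO too. Pold2, an accessory subunit of polymerase delta, had 91.1 TPM in WT, 98.3 TPM in Tut1 KO, 109 TPM in P53 KO and 107 TPM in double KO, and was lowest in WT. The summed level of Pold1, Pold2 and Pole was 176 TPM in both WT and Tut1 KO, 200.5 TPM in P53 KO and 190.4 TPM in double KO.

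The clamp Pcna (ENSMUSG00000027342, chromosome 2, 132249162 to 132253314, minus strand) was the most abundant member in each library, with 499 TPM in WT, 367 TPM in Tut1 KO, 446 TPM in P53 KO and 506 TPM in double KO. It made up 14.7% of the TPM of the 42 genes in WT, 12.6% in Tut1 KO, 13.5% in P53 KO and 14.5% in double KO. A 99.2% identical copy, Pcna-ps2, was listed at 7.93 to 23.9 TPM, and how the authors' counting divided reads between the gene and its copy is not known. Near copies of Mcm7, Uhrf1, Rfc5 and Cdc6 were listed at 0 to 2.37 TPM. The 5 subunits of the clamp loader ranged from Rfc1 (26.1 to 34.2 TPM) to Rfc4 (70.7 to 92.1 TPM). Rfc2 was the steadiest of all 42 genes (48.7 to 51.1 TPM, a range of 0.07 on the log2 scale). Rfc4 overlaps the exons of the more abundant Eif4a2 on the other strand, and 12 members in all had such an overlap.

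Replication protein A coats single-stranded DNA as a trimer of Rpa1, Rpa2 and Rpa3. Rpa1 was lowest in P53 KO, and Rpa2 and Rpa3 were lowest in Tut1 KO, Rpa3 almost level with WT. Rpa1 (ENSMUSG00000000751, chromosome 11, 75298166 to 75348324, minus strand) had 76.7 TPM in WT, 51.6 TPM in Tut1 KO, 23.3 TPM in P53 KO and 56.9 TPM in double KO. P53 KO was the low library, at less than 0.5 times each of the others. In contrast, Rpa2 had its lowest level in Tut1 KO (79.4 TPM) and lay between 88.2 and 92.2 TPM elsewhere, and Rpa3 had 134 TPM in WT, 134 TPM in Tut1 KO, 152 TPM in P53 KO and 137 TPM in double KO. Rpa1 was therefore at 0.87 times Rpa2 in WT, 0.65 in Tut1 KO, 0.25 in P53 KO and 0.62 in double KO. Double KO, also labelled and measured as low in Trp53, had 56.9 TPM, and a part of Trp53 in the low value was not tested.

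Fen1 (ENSMUSG00000024742, chromosome 19, 10199132 to 10204169, minus strand), the flap nuclease of Okazaki fragments, was higher in P53 KO and double KO. It had 18.7 TPM in WT and 16.4 TPM in Tut1 KO, against 42.2 TPM in P53 KO and 48.2 TPM in double KO. How many of all genes divide the libraries this way was not counted. Lig1, the ligase that seals what Fen1 has trimmed, had 109.6 TPM in WT, 97.9 TPM in Tut1 KO, 107.0 TPM in P53 KO and 101 TPM in double KO, and did not follow it. The ratio of Fen1 to Lig1 was 0.17 in both WT and Tut1 KO, 0.39 in P53 KO and 0.48 in double KO. Exons of Fen1 overlap those of Tmem258 on the other strand, which had 205 TPM in WT, 251 TPM in Tut1 KO, 192 TPM in P53 KO and 182 TPM in double KO. The difference of Tut1 KO minus WT was 0.30 for Tmem258 and -0.18 for Fen1, and that of P53 KO minus WT was -0.09 and 1.13. How the authors' counting assigned reads of the overlap was not tested.

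Rrm2, the S-phase subunit of ribonucleotide reductase, was the second most abundant member, with 297 TPM in WT, 228 TPM in Tut1 KO, 264 TPM in P53 KO and 276 TPM in double KO. Rrm1, its partner, was also lowest in Tut1 KO (131 TPM against 148 to 166 TPM). Tyms, which makes thymidylate, was flat at 30.6 to 32.3 TPM. Uhrf1, which brings the maintenance methyltransferase to newly copied DNA, had 117 TPM in WT, 83.5 TPM in Tut1 KO, 119 TPM in P53 KO and 111 TPM in double KO. Tut1 KO was the low library for Rrm1, Rrm2 and Uhrf1, and the 3 other libraries lay close together for Uhrf1.

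Whether the set differed with the Tut1 label was asked with Trp53 intact (Tut1 KO minus WT) and without it (double KO minus P53 KO), from libraries that are not shared. With Trp53 intact no member passed a difference of 1 in either direction, where 4.1% of 9032 genes did, and 2 passed 1.5-fold, both lower (Cdc6 at -0.64 and Pola1 at -0.68), where 8.1% of genes were lower by that much. Neither reached 1.5-fold with a pseudocount of 5 (Cdc6 -0.46, Pola1 -0.55), under quantile normalization (-0.50 and -0.54) or after a correction of each library for transcript GC content and length (-0.50 and -0.32), and Cdc6 did not after centring on all genes (-0.55). The shift was small and broad. The median of the 40 members was -0.18, against -0.093 for all genes, and 32 of 40 were below 0, against 60.7% of genes. Once the median of all genes was set to 0, the number below 0 was 27 of 40, against 50.0% of genes. After the GC and length correction it was 25 of 40, against 48.6% of genes, with a member median of -0.055 and an all-gene median of 0.0082.

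Without Trp53 the members as a set lay where all genes did. The median member difference of double KO minus P53 KO was 0.042, against 0.050 over 8976 genes, and 15 of 40 members were below 0, against 41.3% of genes. Rpa1 (1.25) passed a difference of 1 in the higher direction, where 1.41% of genes did, and Cdc6 (0.63) joined it at 1.5-fold, where 3.48% of genes were higher. Cdc6 fell short of 1.5-fold after centring (0.58), after the GC and length correction (0.57) and with a pseudocount of 5 (0.46), and it did not enter where both libraries had to reach 10 TPM. At the other end stood Rfc5 (-0.40) and Mcm7 (-0.32). Taken per gene, the Tut1 difference with Trp53 intact less that without it had a member median of -0.22 and a median of -0.14 over 9314 genes. With both contrasts centred on all genes the member median was -0.081.

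The Trp53 label was compared with Tut1 intact (P53 KO minus WT) and with the Tut1 label (double KO minus Tut1 KO). In P53 KO minus WT the member median was 0.0010, against -0.053 over 9055 genes, and 20 of 40 were below 0, against 59.9%. The number below 0 was 13 of 40 once the median of all genes was set to 0 (50.0% of genes) and 12 of 40 after the GC and length correction (50.8%). Rpa1 (-1.68) was lower by more than 1, where 1.91% of genes were, and Fen1 (1.13) was higher, where 1.92% were. No further member passed 1.5-fold, where 8.42% of genes did.

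Double KO minus Tut1 KO was the comparison with the largest median. It was 0.20 for the members against 0.086 over 8950 genes, and 37 of 40 members were above 0, against 60.3% of genes, the exceptions being Mcm7, Gins2 and Rfc2. Fen1 (1.5) passed a difference of 1, where 2.13% of genes were higher by that much. At 1.5-fold Cdc6 (0.80), Pola1 (0.61) and Mcm4 (0.60) were added, where 6.49% of genes were higher, and no member was lower, where 4.18% of genes were. Pola1 and Mcm4 no longer reached 1.5-fold after centring (0.53 and 0.51), under quantile normalization (0.51 for both), with a pseudocount of 5 (0.49 and 0.57) or after the GC and length correction (0.26 and 0.41), and Mcm4 did not without mitochondrial and ribosomal protein genes (0.58). Cdc6 fell short with a pseudocount of 5 (0.58) and did not enter where both libraries had to reach 10 TPM. The GC and length correction took the member median to 0.11, against 0.0049 over all genes, and put 14 of 40 members below 0, against 49.2% of genes. Because Tut1 KO stands in this comparison and in Tut1 KO minus WT, a low value in that library gives the members opposite signs in them. WT is subtracted in both Tut1 KO minus WT and P53 KO minus WT, so an odd WT value moves both the same way.

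**Figure D3:**
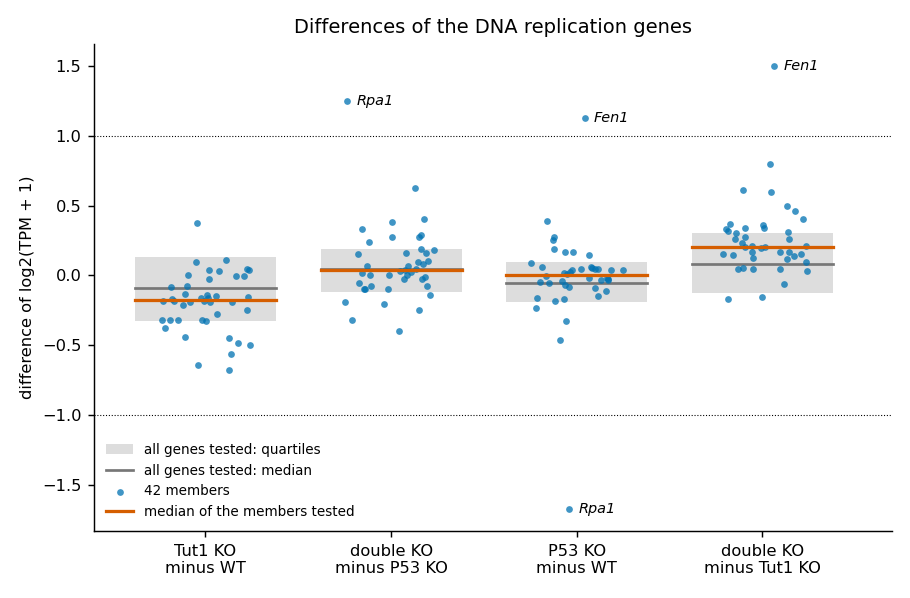
Differences of log2(TPM + 1) (vertical axis) of the 42 replication genes (points) in 4 comparisons, each between 2 libraries, with the member median (orange) and the median and quartiles of all genes tested (grey). Dotted lines mark a difference of 1, passed by Rpa1 and Fen1 alone, and the member median lies below that of all genes in Tut1 KO minus WT (-0.18 against -0.093) and above it in double KO minus Tut1 KO (0.20 against 0.086).

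Ranking the libraries restates the same TPM values without a threshold, and gives no separate support to the medians. Of the 42 genes, 31 (73.8%) had their lowest level in the library labelled Tut1 KO, against 41.1% of 9314 genes, and 6 had it in P53 KO (24.3% of genes), 3 in WT (17.5%) and 2 in double KO (17.1%). The highest level was in double KO for 21 (50.0%, against 27.7% of genes), in P53 KO for 11 (19.6% of genes) and in WT for 8 (29.6%), and in Tut1 KO for Gins2 and Rfc2 alone (4.76%, against 23.1%). The 11 members whose lowest level was elsewhere were Orc5, Orc6, Mcm5, Mcm10, Rfc2 and Rpa1 (P53 KO), Gmnn, Pold2 and Tyms (WT), and Mcm7 and Gins2 (double KO). Under quantile normalization 23 were lowest in Tut1 KO, against 32.7% of genes, and under the GC and length correction 20 were, against 29.8% of genes. Spearman's rho of the difference of Tut1 KO minus WT with transcript GC content was 0.42, and with length -0.36, over 8469 protein-coding genes, which share the same libraries and are not independent. Over the 42 members rho was 0.22 for GC content and -0.17 for length, and their median GC content of 48.3% was close to the 49.7% of the genes tested.

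**Figure D4:**
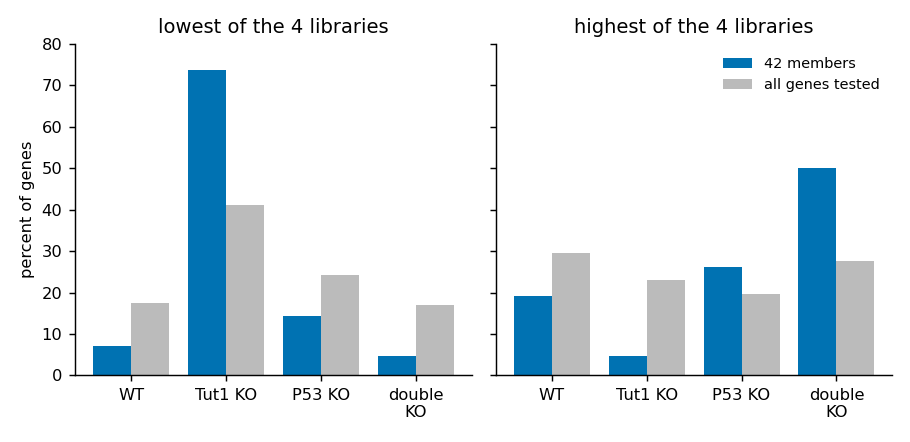
Percent of genes (vertical axis) whose lowest (left) or highest (right) TPM of the 4 libraries fell in each library, for the 42 replication genes and for 9314 genes tested. The members stand above all genes for lowest in Tut1 KO (73.8% against 41.1%) and highest in double KO (50.0% against 27.7%).

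Summed by role, the clamp and loader (780.5 TPM in WT, 614 TPM in Tut1 KO), nucleotide supply (491 and 390.0 TPM) and polymerase alpha and primase (179 and 145 TPM) had the widest gaps between WT and Tut1 KO, at -0.35, -0.33 and -0.31 on the log2 scale, after the lone gene Uhrf1. Pcna alone held 499 TPM of the clamp and loader sum in WT and 367 TPM in Tut1 KO. By the median gene of each role the differences were -0.23, -0.32 and -0.34 in the same order. Licensing was the one role with a higher sum in Tut1 KO (95.3 TPM in WT and 111 TPM). Gmnn was the 1 gene of its 3 that was higher.

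**Figure D5:**
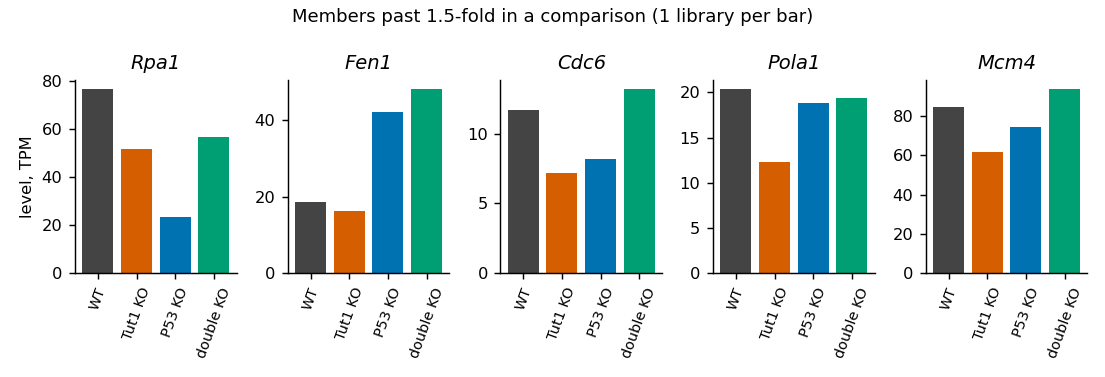
TPM (vertical axes, from 0, each with its own scale) in the 4 libraries for the 5 members past 1.5-fold in at least 1 comparison, with 1 library per bar and so no error bar. Rpa1 is low in P53 KO (23.3 TPM), Fen1 is high in P53 KO and double KO (42.2 and 48.2 TPM), and Cdc6, Pola1 and Mcm4 are lowest in Tut1 KO.

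Other replication genes, from a list of 47 that holds none of the 42, are described by the same measures, with no test between the sets. Their median over the 42 tested was -0.31 in Tut1 KO minus WT, -0.01 in double KO minus P53 KO, -0.02 in P53 KO minus WT and 0.27 in double KO minus Tut1 KO. In Tut1 KO minus WT 36 of 42 were below 0, against 60.7% of all genes, and 8 were lower by 1.5-fold (8.1% of all genes), with none higher. These 8 were Cdc7 (-0.68) and its activator Dbf4 (-0.60), the kinase pair that fires licensed origins, the salvage kinases Tk1 (-0.67) and Dck (-0.65), the origin subunit Orc4 (-0.65), the chromatin remodeller Hells (-0.60), the topoisomerase Top1 (-0.59) and the firing and checkpoint factor Topbp1 (-0.59). In double KO minus Tut1 KO Mtbp (0.81), which helps origins fire, the polymerase epsilon subunit Pole2 (0.64), Dbf4 (0.61) and Dck (0.59) were higher by 1.5-fold, as were 6.49% of all genes, and none was lower. After the GC and length correction, an alternative chosen after the data were seen, the medians in Tut1 KO minus WT and double KO minus Tut1 KO were -0.13 and 0.084. In double KO minus P53 KO and in P53 KO minus WT no gene of this list passed 1.5-fold.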

How the data were processed

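RNA levels were measured in 4 libraries of mouse neural stem cells, 1 per group. The authors deposited a gene-level table of TPM values. The submitters' processing notes name Trimmomatic, HISAT2, StringTie and mm10, with neither versions nor roles. Per the labels the kit was a stranded short-read one, whereas the series' design text describes long reads, so the platform behind the values is uncertain. Counts and depth are unknown, and no interval for counting error was computed. TPM is relative: a level depends on all others in the library.

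Differences were taken between libraries on log2(TPM + 1) for genes at 10 TPM or more in at least 1 of the libraries compared. A gene was called at a difference of 1 and also counted at 1.5-fold (0.58 on the log2 scale). No test was run. Counts of members past a threshold are given beside the percent of all genes tested that passed it. Values were printed for the most abundant member of each of 11 roles, the 10 members with the widest range and any member past 1.5-fold, and other replication genes were named when past 1.5-fold. Members and lists were chosen with earlier results of these data known. Groups came from the sample titles. Positions, GC content and length came from GENCODE M21 (GRCm38), which held 99.4% of the IDs, promoters from RefSeq (GRCm38.p6), and near copies (95% identity or more over at least 700 bases) from blastn 2.17.0. Alternatives were pseudocounts of 0.1 and 5, other minimum levels, centring, quantile normalization, removal of 120 mitochondrial and ribosomal protein genes, protein-coding genes only, and a quadratic correction for GC content and length. Of the scripts, only the steps that take differences and call genes were tested on simulated data. Computations ran in Python 3.11.15 (pandas 2.3.3, numpy 2.4.6, scipy 1.17.1), with figures from matplotlib 3.10.9.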

Additional observations from a re-analysis of the deposited data

Results flagged for a closer look

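Cdc6 differed in opposite directions with the Tut1 label. It was lower in Tut1 KO than in WT (-0.64) and higher in double KO than in P53 KO (0.63), a difference between both contrasts of -1.27 on the log2 scale. Each contrast rests on 1 library per side, and the difference between them was not tested. Cdc6 had 7.16 to 13.2 TPM and passed the 10 TPM minimum in each contrast only through the library where it was high, so it gives no value where both libraries must reach 10 TPM. With a pseudocount of 5 the contrasts were -0.46 and 0.46. Sex-linked transcripts divide the libraries in the same way and cannot be told apart from it.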

How the results depend on the processing

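The member median of Tut1 KO minus WT stayed below 0 under all 10 alternatives (-0.18 to -0.055). Its sign could not change with either pseudocount or with protein-coding genes only. The median of Tut1 KO minus WT was smallest in size with the GC and length correction, -0.055. The median of that difference less double KO minus P53 KO ranged from -0.24 to -0.081: it was -0.081 after centring, -0.11 after quantile normalization and -0.081 after the GC and length correction. Medians ranged from -0.01 to 0.04 in double KO minus P53 KO, from 0.00 to 0.05 in P53 KO minus WT and from 0.11 to 0.21 in double KO minus Tut1 KO. At 1.5-fold the members past the threshold numbered 2 in Tut1 KO minus WT, 2 in double KO minus P53 KO and 4 in double KO minus Tut1 KO, and over the alternatives, chosen for this count after the data were seen, 0 to 2, 1 to 2 and 1 to 4. Rpa1 and Fen1 passed 1.5-fold in P53 KO minus WT under all 10 alternatives. With a pseudocount of 5, 1 member passed a difference of 1 in P53 KO minus WT, since Fen1 came to 0.99. The count of members lowest in Tut1 KO was 20 with the GC and length correction. Of 196 values of single named members, 26 moved by more than 0.1 on the log2 scale and 0 changed the sign of a called difference. Leaving out a replicate was not possible with 1 library per group. No paired analysis was possible because each group had 1 library and the labels carry no replicate numbers. Unknown depth limits the low members Orc1, Cdc6 and Gins3 most.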

Other observations

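Genes of other cell-cycle lists, fixed as context for the replication genes, were compared in the same way. All 29 mitotic genes tested were below 0 in Tut1 KO minus WT, with a median of -0.30, where 60.7% of all genes were below 0 with a median of -0.093. All 29 were above 0 in double KO minus Tut1 KO, with a median of 0.36, where 60.3% of all genes were above 0 with a median of 0.086. After the GC and length correction, run on this list after the data were seen, 23 of 29 were below 0 in Tut1 KO minus WT (median -0.14, with 48.6% of all genes below 0) while in double KO minus Tut1 KO 2 of 29 were below 0 (median 0.19, with 49.2% of all genes below 0). Ccnb1, the cyclin that drives mitotic entry, had 185 TPM in WT, 92.0 TPM in Tut1 KO, 114 TPM in P53 KO and 145 TPM in double KO. In Tut1 KO minus WT it was lower by just over the threshold of 1, which 4.1% of all genes passed in either direction, and falls short of it once the median of all genes is set to 0. Genes of replication checkpoints and fork protection had medians of -0.32 over 13 genes in Tut1 KO minus WT and 0.52 over 13 genes in double KO minus Tut1 KO, which became -0.096 and 0.19 after that correction. Both comparisons share the library labelled Tut1 KO.

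Of the genes of E2F, Rb and G1/S control, 19 of 25 were below 0 in Tut1 KO minus WT (median -0.29), against 60.7% of all genes. When double KO was set against Tut1 KO, 23 of 28 were above 0 (median 0.33), against 60.3% of all genes. After the GC and length correction these medians were -0.20 and 0.24. Among the 6 above 0 in Tut1 KO minus WT was Cdk4, with 635 TPM in WT and 720 TPM in Tut1 KO. Tfdp1, the partner of E2F factors, had 107 TPM in WT, 54.7 TPM in Tut1 KO, 84.4 TPM in P53 KO and 86.9 TPM in double KO. E2f1 was also lowest in Tut1 KO, at 14.7 TPM, against up to 21.6 TPM in P53 KO.

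The levels of 3 further genes were as follows. Chek1, the checkpoint kinase, had 12.6 TPM in WT, 17.2 TPM in Tut1 KO, 8.57 TPM in P53 KO and 24.99 TPM in double KO. Cdk2, the S-phase kinase, had 35.9, 36.2, 56.5 and 16.1 TPM in the same order, a difference of -1.75 in double KO minus P53 KO. Cdkn1a, the p53 target that inhibits cyclin-dependent kinases, had 477 TPM in WT and 605 TPM in Tut1 KO against 196 TPM in P53 KO and 179 TPM in double KO.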
